A study of Mus musculus with 6 samples.

Results

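The 40 genes described here encode the replication helicase and other parts of the machinery of cell division, and were taken by name. They comprised 7 Mcm genes, 9 genes of S phase entry and nucleotide supply, 18 genes of G2 and mitosis, the 3 D-type cyclins and 3 inhibitors of cyclin-dependent kinases (CDKs). The arrays measured 18193 genes with a probe set of their own (a set of short DNA probes that together read 1 transcript), and 39 of the 40 were among them. Ccnb1, which encodes cyclin B1, had none and is not analysed here. A total of 27 of the 40 were bright enough to be tested: 6 Mcm genes, 3 genes of S phase, 12 of mitosis, 3 D cyclins and 3 inhibitors. The other 12 lay under the filter on dim genes, a signal of about 43.8.

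Total RNA came from whole mammary glands of wild-type mice (3 arrays) and of mice in which Elf5 was knocked out (Elf5 KO, 3 arrays), each sample on its own Affymetrix array. Elf5 is a transcription factor of the ETS family that milk-producing luminal cells express. The sample labels give pregnancy day 17 for all 6 glands, but the design text gives lactation day 1, and the stage is not settled here. No strain, allele or Cre driver of the KO is given in the sources used here, and the labels call the samples biological replicates from animals. A whole gland mixes epithelium, fat, connective tissue, vessels and blood cells, and in such a sample more cells of a type cannot be told apart from more RNA per cell.

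The brighter Elf5 probe set read 48.0% of wild type in the KO, and a second one 33.7%. Correlations over the genes tested were 0.82 to 0.95 within a group and 0.72 to 0.92 between groups. The Gapdh 3' to 5' ratio, a measure of RNA quality that is low for intact RNA, lay between 0.833 and 1.09 in wild type. It was 0.802 in KO array 1, 3.89 in KO array 2 and 13.6 in KO array 3 (two-sided exact permutation p = 0.4, smallest possible 0.1). For Actb, wild type spanned 1.20 to 2.04, and of the KO arrays only array 3 lay outside that range (1.58, 1.87 and 21.0, exact permutation p = 0.5). Values without KO arrays 2 and 3 are called those of the "low-ratio arrays". They are given for brightest probe sets of tested genes, and for medians over tested genes of a list, that they move by over 1.5 times. All 12 markers of milk-producing epithelium lay over the filter on dim genes. Their summed signal was 60292 to 138196 in wild type and 46153 to 70495 in the KO.

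The Mcm2 to Mcm7 proteins form a ring of 6 subunits that is loaded on DNA before S phase and unwinds it during replication. Its genes, like those for nucleotide supply, are known targets of E2F transcription factors, which D cyclins with their kinases release from the Rb protein and which CDK inhibitors hold back. Genes of G2 and mitosis are switched on later, through CCAAT boxes, a cell cycle element called the CHR and the factor Foxm1. In the mammary gland, luminal cells divide rapidly during pregnancy, and division slows as milk secretion begins.

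These known control elements were looked for in the 250 bases before each gene start, on both strands, in RefSeq promoters of build GRCm38.p6, which matched 33 of the 40 genes. The search letters were TTTCCCGC, TTTGGCGC, TTTCGCGC and TTTGCCGC for E2F, TTTGAA and TTCGAA for the CHR, CCAAT for the CCAAT box and CCGGAAGT for an ETS site. The forms of E2F letters can overlap each other on opposite strands, and TTCGAA reads the same on both. E2F letters stood before 3 of 6 Mcm genes (Mcm5, Mcm6 and Mcm7), 1 of 8 S phase genes (Cdc6) and 1 of 15 mitotic genes (Cdk1), while 1.86% of all 32851 promoters of the table and 3.31% of those of the genes tested held them. Signals of the brightest probe sets of Mcm5 and Mcm7 did not overlap between the groups, while those of Mcm6, Cdk1 and Cdc6 (under the filter) did. Those of Mcm3 did not overlap either, and Mcm3 held no E2F letters. Of all genes tested, 27.3% did not overlap. The other Mcm5 and Mcm7 probe sets over the filter overlapped between the groups. The sites are shown as stretches of 30 bases, with the E2F letters in capitals.

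Mcm5 (chr8:75109345-75109374, + strand): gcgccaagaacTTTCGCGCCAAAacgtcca
Mcm6, far site (chr1:128359797-128359826, - strand): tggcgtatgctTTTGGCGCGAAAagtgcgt
Mcm6, near site (chr1:128359734-128359763, - strand): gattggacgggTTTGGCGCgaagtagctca
Mcm7 (chr5:138172030-138172059, - strand): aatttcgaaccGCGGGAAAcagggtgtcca
Cdc6 (chr11:98908002-98908031, + strand): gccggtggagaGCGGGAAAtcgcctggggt
Cdk1 (chr10:69353025-69353054, - strand): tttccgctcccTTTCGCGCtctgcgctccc

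CCAAT was found before 6 of 6 Mcm genes and 14 of 15 mitotic genes, 3 of 8 S phase genes, 1 of 1 D cyclins and 1 of 3 inhibitors. The share was 33.8% of all promoters and 34.4% of those of the genes tested. For Ccnd3, the D cyclin, it lay in another promoter than that printed below. Here and for E2F above, a gene counted if any of its promoters held the letters, whereas the shares count promoters. CHR letters stood before 8 of 15 mitotic genes, 2 of 6 Mcm genes and 0 of 8 S phase genes, against 17.1% of all promoters and 12.1% of those of the genes tested. ETS letters stood before 3 of the 33 members, against 2.88% of all promoters and 5.57% of those of the genes tested. For each role, the 150 bases before the start of the member with the smallest p among those in the promoter table follow, with CCAAT (or ATTGG) and CHR letters in capitals, so that the elements named above can be seen in place. A match describes letters only, and a window without one says nothing of the factor.

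Mcm3, replication helicase (chr1:20820313-20820462, - strand): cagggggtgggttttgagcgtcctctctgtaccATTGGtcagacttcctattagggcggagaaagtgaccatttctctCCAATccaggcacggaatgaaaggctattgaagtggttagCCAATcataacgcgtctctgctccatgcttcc
Rrm2, nucleotide supply (chr12:24708104-24708253, + strand): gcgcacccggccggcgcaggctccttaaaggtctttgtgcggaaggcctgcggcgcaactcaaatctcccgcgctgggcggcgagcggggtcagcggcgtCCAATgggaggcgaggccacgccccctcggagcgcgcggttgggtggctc
Top2a, mitosis (chr11:99024200-99024349, - strand): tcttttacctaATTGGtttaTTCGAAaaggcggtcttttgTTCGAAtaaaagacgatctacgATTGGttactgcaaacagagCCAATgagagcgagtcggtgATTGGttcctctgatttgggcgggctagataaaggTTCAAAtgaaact
Ccnd3, D cyclin (chr17:47504901-47505050, + strand): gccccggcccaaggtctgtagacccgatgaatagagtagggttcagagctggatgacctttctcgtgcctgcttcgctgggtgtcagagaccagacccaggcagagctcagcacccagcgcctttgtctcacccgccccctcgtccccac
Cdkn2c, CDK inhibitor (chr4:109666757-109666906, - strand): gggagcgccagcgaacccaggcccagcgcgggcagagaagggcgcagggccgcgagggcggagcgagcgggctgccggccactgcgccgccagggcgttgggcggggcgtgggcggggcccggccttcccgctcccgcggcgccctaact

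The question put to the members was whether the replication genes and the mitotic genes differed alike between Elf5 KO and wild-type glands. Of the 27 tested, 19 had a higher mean in the KO and 8 a lower one, with a median difference (KO minus wild type, log2) of 0.58 against 0.06 over all genes. No member passed limma's test over all 10916 genes at an adjusted p of 0.05, where 1.24% of all genes did (1.13% rose, 0.11% fell). An unadjusted p under 0.05 was found for 10 of the 27 members and for 2384 of the 10916 genes. With the replicate number of the sample titles as a block, which fits the 3 same-numbered pairs, limma called 6 members: Mcm3, Mcm5, Mcm7, Ccnd2 and Cdkn2c rose and Foxm1 fell. That fit called 12.2% of all genes (7.7% rose, 4.53% fell). All KO arrays lay above all wild-type arrays for 10 members, a pattern that 16.7% of all genes showed, and below them for 1, Foxm1, against 10.6% of all genes. The labels do not say that the numbers mark shared animals or days, and the calls depended on which pairs were fitted. Without pair 2 the blocked fit called 0 members and 19 genes in all, while the 6 differences were 1.49 for Mcm3, 2.08 for Mcm5, 1.5 for Mcm7, 1.21 for Ccnd2, 0.95 for Cdkn2c and -1.07 for Foxm1. Without pair 1 it lost Ccnd2 and Cdkn2c (limma adjusted p = 0.0941 and 0.104), and without pair 3 it kept all 6.

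**Figure D1:**
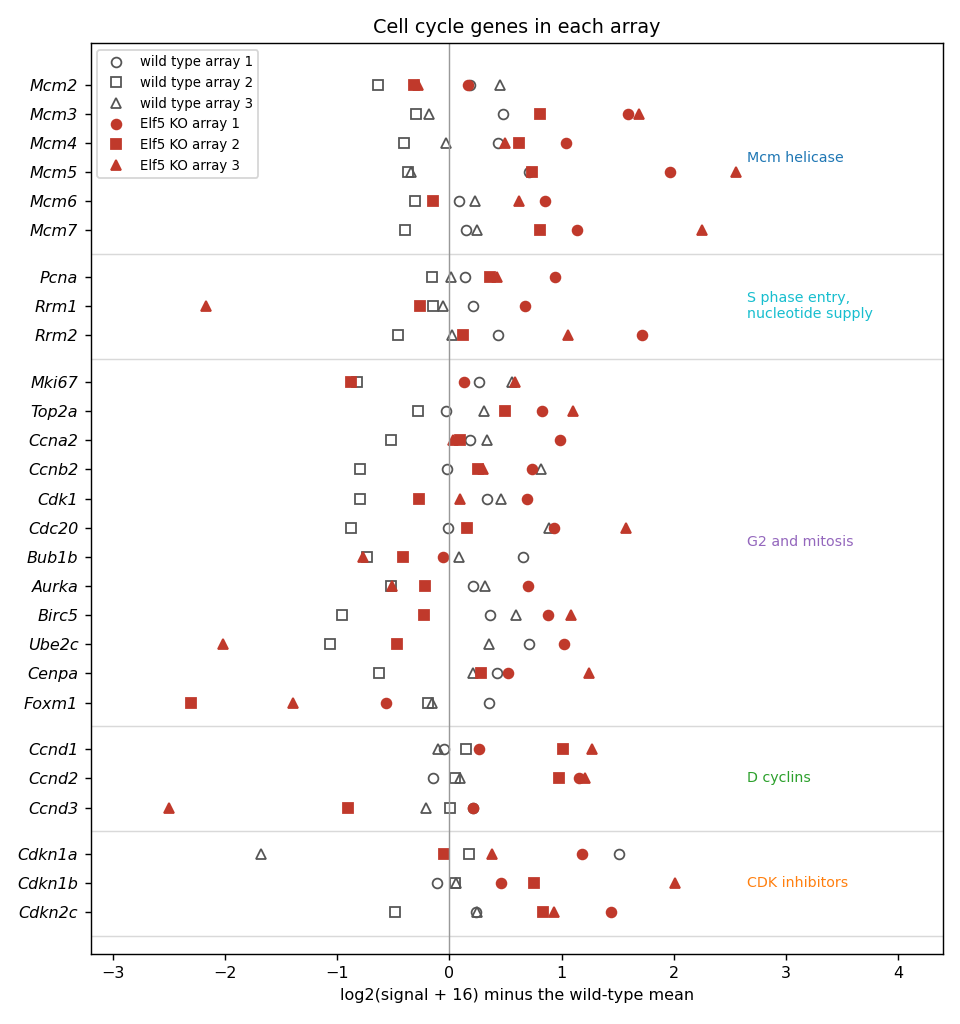
Signal of each tested member in each array, as log2(signal + 16) minus the wild-type mean of that gene, ordered by role (open symbols wild type, filled symbols Elf5 KO; circle, square and triangle are arrays 1, 2 and 3). For Mcm3, Mcm4, Mcm5 and Mcm7 all filled symbols lie to the right of the open ones, the mitotic genes mostly mix, and Foxm1 lies to the left. For Ccnd3 the circles of both groups coincide.

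Among the Mcm genes, 5 of the 6 tested had a higher mean in the KO, with a median difference of 1.04, and for 4 of them the groups did not overlap. Signals are given in the order of arrays 1, 2 and 3 from here on. Mcm3 read 68.5, 33.4 and 37.5 in wild type against 167, 90.0 and 179 in the KO. Every KO array was above every wild-type array, by the least margin in KO array 2. The Mcm3 difference was 1.36 ± 0.35 (SE, n = 3 per group), with a limma adjusted p of 0.0807 without the block and 0.0218 with it.

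Mcm5 read 84.4, 31.5 and 32.3 in wild type against 224, 86.0 and 345 in the KO. The groups were parted, but KO array 2 was only just above wild-type array 1. Its difference of 1.75 ± 0.49 (SE) was the largest of the 27 members under limma (adjusted p = 0.0933 without the block, 0.0247 with it). Mcm7 read 229, 152 and 246.5 in wild type against 469, 371 and 1039.6 in the KO, and KO array 3 stood far above the others. For Mcm7 the difference was 1.40 ± 0.41 (SE; limma adjusted p = 0.099, and 0.0242 with the block). On the low-ratio arrays Mcm3, Mcm5 and Mcm7 differed by 1.59, 1.97 and 1.13.

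Mcm4 read 193, 101 and 136.5 in wild type against 303, 222 and 204 in the KO. Its groups were parted too, with a small gap between wild-type array 1 and KO array 3, and the difference of 0.72 ± 0.32 (SE) passed in neither fit (limma adjusted p = 0.23, and 0.104 with the block). Mcm6 read 296, 221 and 328 in wild type against 513, 250 and 435 in the KO, so that KO array 2 lay among the wild-type arrays. Its difference was 0.44 ± 0.34 (SE), and 0.85 on the low-ratio arrays. Mcm2 stood apart from the other subunits, with 133, 67.7 and 163 in wild type against 130.0, 88.8 and 91.6 in the KO. The difference of Mcm2 was -0.14 ± 0.35 (SE), it turned positive under median centring (0.07) and on the low-ratio arrays (0.16), and the groups overlapped throughout. Mcm10, a replication factor that is no subunit of the ring, was under the filter with 28.6 to 31.5 in wild type and 22.6 to 56.0 in the KO. A second Mcm10 probe set under the filter read 67.2, 28.4 and 23.7 in wild type against 20.5, 14.3 and 15.7 in the KO. Its groups were parted downward, with a difference of -0.69.

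Genes of S phase entry and nucleotide supply were mostly dim, and 6 of the 9 lay under the filter. Pcna, the sliding clamp of the replicative polymerases, read 1132, 921 and 1032 in wild type against 1985, 1325 and 1382 in the KO. All KO arrays were above all wild-type arrays, and the difference of 0.58 ± 0.29 (SE) did not pass (limma adjusted p = 0.27, and 0.139 with the block). It was 0.94 on the low-ratio arrays. Rrm2, the small subunit of ribonucleotide reductase, read 169.8, 84.5 and 124 in wild type against 437, 134 and 271 in the KO. Only KO array 2 fell within the wild-type range, and each pair differed upward (1.29, 0.57 and 1.03), with a limma adjusted p of 0.228 for 0.96 ± 0.43 (SE), or 0.0533 with the block. The low-ratio arrays gave 1.72. The other Rrm2 probe sets over the filter differed by 0.50 and -0.12. With the mean of all its probe sets the difference was 0.45 (limma adjusted p = 0.298 with the block).

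Rrm1, the large subunit of the same enzyme, gave conflicting readings. Its brightest probe set read 209, 160.1 and 171 in wild type against 295, 147 and 27.4 in the KO, so KO array 1 was the highest and KO array 3 by far the lowest. A second probe set read 148, 82.9 and 76.7 in wild type against 252, 165 and 130.5 in the KO. The first gave a difference of -0.59 ± 0.60 (SE) and the second 0.75, and on the low-ratio arrays the first turned to 0.67. The 6 dim genes were Tyms and Tk1, which make thymidine nucleotides, Ccne1 and Ccne2, the E cyclins, Cdc6, a loader of the helicase, and E2f1. Their groups overlapped in every case, and 4 of the 6 had a higher mean in the KO, Tyms and E2f1 a lower one.

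Genes of G2 and mitosis differed in direction: 7 of 12 had a higher mean in the KO and 5 a lower one. The median of 0.27 went to -0.10 without wild-type array 2, to -0.01 without KO array 1 and to 0.72 on the low-ratio arrays. Mki67, the proliferation marker Ki-67, read 507, 230 and 626 in wild type against 462, 221 and 639 in the KO. Each KO array came close to the wild-type array of its own number, with pair differences of -0.13, -0.05 and 0.03. The mean difference of -0.05 ± 0.47 (SE) turned to 0.16 under median centring and 0.13 on the low-ratio arrays, and an error of that size leaves room for changes in either direction.

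Among the 12 tested, Top2a, the topoisomerase that untangles chromosomes, was the one whose brightest probe set put all KO arrays above all wild-type arrays. It read 75.2, 60.6 and 99.6 in wild type against 150, 115 and 184 in the KO. Within the pairs it was higher by nearly equal steps (0.86, 0.78 and 0.79). The difference of 0.81 ± 0.31 (SE) nevertheless passed in neither fit (limma adjusted p = 0.173, and 0.0679 with the block). The other Top2a probe sets, under the filter, differed by 0.11 and -0.13. With the mean of all its probe sets the difference was 0.26 (limma adjusted p = 0.329 with the block). Cdc20, an activator of the anaphase-promoting complex, read 136, 67.5 and 266.5 in wild type against 276, 154 and 440.3 in the KO. The groups overlapped because arrays of both groups varied alike, while the pairs differed by 0.94, 1.03 and 0.69. Its difference was 0.89 ± 0.49 (SE; limma adjusted p = 0.316, and 0.0581 with the block). A second Cdc20 probe set over the filter differed by 0.16, and the mean of all its probe sets had a blocked adjusted p of 0.319 under limma.

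The remaining mitotic genes passed in neither fit. Cenpa, the histone of the centromere, differed by 0.68, Birc5 (survivin) by 0.58, Ccnb2 (cyclin B2) by 0.43, Ccna2 (cyclin A2) by 0.37 and Cdk1, the mitotic kinase, by 0.17, each with overlapping groups. With the mean of all its probe sets, the others under the filter, Cenpa differed by 0.11. On the low-ratio arrays Birc5, Ccnb2, Ccna2 and Cdk1 differed by 0.88, 0.73, 0.99 and 0.69. A second Ccna2 probe set read 64.9, 17.4 and 67.8 in wild type against 85.6, 73.2 and 95.6 in the KO, with parted groups and a difference of 0.72. Aurka, a spindle kinase, differed by -0.01 and turned positive under quantile normalization (0.14), median centring (0.21) and on the low-ratio arrays (0.70). The checkpoint kinase Bub1b differed by -0.41, and by -0.06 on the low-ratio arrays. Ube2c, the ubiquitin carrier of the same anaphase complex, read 220.2, 53.4 and 169 in wild type against 278, 89.0 and 19.8 in the KO. Its difference of -0.49 ± 0.71 (SE) rested on KO array 3, and on the low-ratio arrays it was 1.02.

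Of the 5 dim mitotic genes, Bub1, the partner kinase of Bub1b, was the only one with parted groups. It read 8.7, 11.1 and 16.2 in wild type against 40.1, 24.8 and 80.7 in the KO, a difference of 1.12 that did not pass when all genes were tested (limma adjusted p = 0.151). Aurkb, Plk1, Kif11 and Cenpe, which encode 2 kinases and 2 motor proteins, overlapped between groups, with differences from -0.19 to 0.45.

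Foxm1, the transcription factor of the mitotic program, went the other way. It read 242, 161 and 165 in wild type against 121, 25.1 and 61.2 in the KO. All KO arrays were below all wild-type arrays, KO array 2 by the most. The difference was -1.42 ± 0.43 (SE), with a limma adjusted p of 0.109 without the block, 0.0248 with it and a difference of -0.56 on the low-ratio arrays. A second Foxm1 probe set read 97.2, 78.9 and 98.1 in wild type against 21.9, 23.1 and 20.6 in the KO. That probe set differed by -1.50, -1.45 and -1.55 in KO arrays 1, 2 and 3, where the brightest one differed by -0.56, -2.30 and -1.39. No other mitotic gene was called in the fit without or with the block. Of the tested mitotic genes with CHR letters, Cdc20, Ccnb2, Cdk1 and Top2a had a higher mean in the KO, and Bub1b, Ube2c and Mki67 a lower one.

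D cyclins, which start the cell cycle, split by gene. Ccnd2 read 336, 386 and 400.3 in wild type against 852, 747 and 884 in the KO. The groups were far apart and tight, at 374 ± 34.0 (SD, n = 3) and 828 ± 71.4 (SD, n = 3). Ccnd2 differed by 1.11 ± 0.27 (SE), with a limma adjusted p of 0.0699 without the block and 0.0308 with it, the smallest p of all members without the block. Its 4 other probe sets over the filter differed by 1.25, 0.60, 2.03 and 0.53, all with a higher mean in the KO. Those at 1.25 and 2.03 had parted groups, whereas those at 0.60 and 0.53 overlapped. The one at 0.60 differed by -0.13 in KO array 3, and the one at 0.53 by -0.41 and -0.05 in KO arrays 2 and 3.

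Ccnd1 read 845, 970.1 and 811 in wild type against 1048, 1775 and 2132 in the KO. KO array 1 stayed near the wild-type arrays and KO arrays 2 and 3 were higher, so the difference of 0.85 ± 0.33 (SE; limma adjusted p = 0.179, and 0.0799 with the block) shrank to 0.26 on the low-ratio arrays. The other 2 Ccnd1 probe sets differed by -0.05 and -0.33. Ccnd3 read 568, 490.1 and 421 in wild type against 568, 254 and 73.1 in the KO. Here too KO array 1 matched wild type and KO arrays 2 and 3 departed, downward this time, and the difference of -1.07 ± 0.57 (SE) became 0.21 on the low-ratio arrays. For Ccnd1 and Ccnd3 the arrays that departed were thus those with high Gapdh ratios, and the part of RNA quality in these differences was not tested.

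All 3 CDK inhibitors had a higher mean in the KO. Cdkn2c, which encodes p18 and blocks the kinases of D cyclins, read 432, 256 and 436 in wild type against 1018, 664 and 712 in the KO. The groups were parted on every array. The difference was 1.07 ± 0.33 (SE; limma adjusted p = 0.113, and 0.0388 with the block), and 1.44 on the low-ratio arrays. Cdkn1b, which encodes p27, read 209, 235 and 236.5 in wild type against 316, 393 and 963 in the KO. All KO arrays were higher, KO array 3 by far, and the difference of 1.07 ± 0.41 (SE; limma adjusted p = 0.173, and 0.0688 with the block) was 0.46 on the low-ratio arrays. A second Cdkn1b probe set, under the filter, differed by -0.38. With the mean of all probe sets Cdkn1b differed by 0.35 (limma adjusted p = 0.341 with the block). Cdkn1a, which encodes p21, varied too much to compare: 319.5, 116 and 20.6 in wild type against 250.4, 97.4 and 137 in the KO, a difference of 0.50 ± 0.69 (SE), and 1.18 on the low-ratio arrays.

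Set beside each other, the roles were compared within the numbered pairs and within arrays. Within pairs 1, 2 and 3, the median Mcm difference was 0.88, 1.06 and 1.20, that of the 3 S phase genes 0.80, 0.52 and 0.42, and that of the mitotic genes 0.42, 0.61 and -0.33. D cyclins gave 0.31, 0.86 and 1.11, and inhibitors 0.56, 0.70 and 1.96. The median was above 0 in every pair for each role except mitosis, which was below 0 in pair 3. On the low-ratio arrays, however, the mitotic median was 0.72 beside 1.09 for the Mcm genes and 0.94 for S phase, and KO array 1 lay above all wild-type arrays for 8 of 12 mitotic genes, 5 of 6 Mcm genes and 3 of 3 S phase genes, against 30.3% of all genes.

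The difference between replication and mitosis was also taken within each array. The Mcm median minus the mitotic median gave 0.01, 0.38 and -0.25 in wild type against 0.37, 0.90 and 0.95 in the KO. KO array 1 fell just below wild-type array 2, so the groups overlapped, by that 1 pair of arrays. The same contrast for the S phase genes gave -0.09, 0.61 and -0.34 in wild type against 0.23, 0.34 and 0.23 in the KO, which lie inside the wild-type range. These contrasts are a description, with no test, since the genes were chosen with earlier results known.

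**Figure D2:**
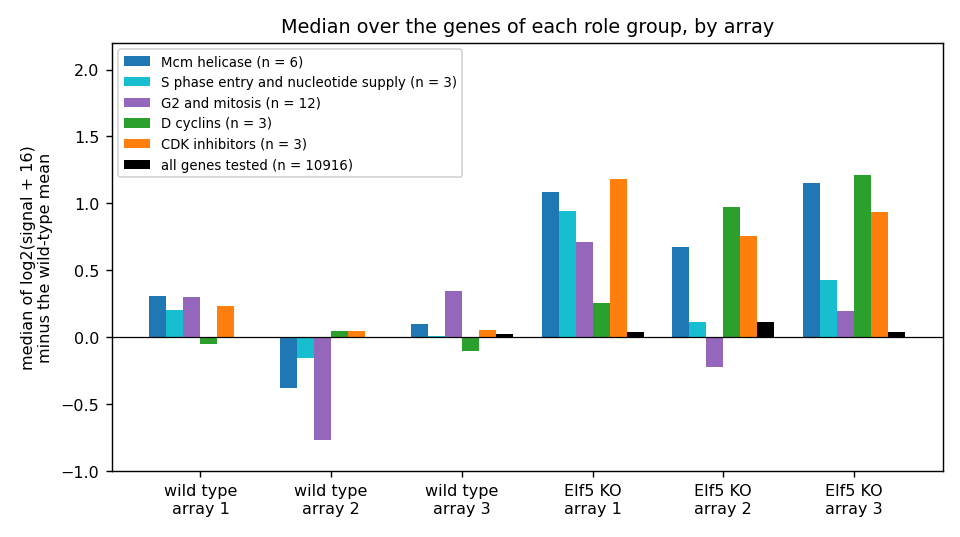
Median over the tested genes of each role in each array, as log2(signal + 16) minus the wild-type mean of the gene, with the median of all genes tested in black. Bars are medians over genes without error bars. The Mcm bars stand at 1.09, 0.68 and 1.15 in the KO, whereas the mitotic bars stand at 0.72, -0.22 and 0.20, and wild-type array 2 is the lowest of its group for Mcm, S phase and mitotic genes.

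Array number 2 was low for dividing-cell genes in both groups. Wild-type array 2 was the lowest of its group for 22 of 27 members, including 12 of 12 mitotic, 6 of 6 Mcm and 3 of 3 S phase genes, against 31% of all genes. KO array 2 was the lowest of its group for 18 of 27 members, against 23.4% of all genes. Both held for 16 members, 8 of them mitotic and 5 Mcm, against 11.3% of all genes. Against the mean of arrays 1 and 3 of its own group, the mitotic median of array 2 was -1.15 in wild type and -0.54 in the KO. For the Mcm genes these values were -0.57 and -0.86. The medians of the 3 D cyclins were 0.07 and 0.24. Skeletal muscle markers moved with the same arrays, in the opposite direction: their summed signal was 387, 4327 and 478 in wild type against 2156, 8398 and 1644 in the KO. Their part in the array 2 values was not tested. A deviation shared by same-numbered arrays enters the error of the fit without the block and is taken out by the block.

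**Figure D3:**
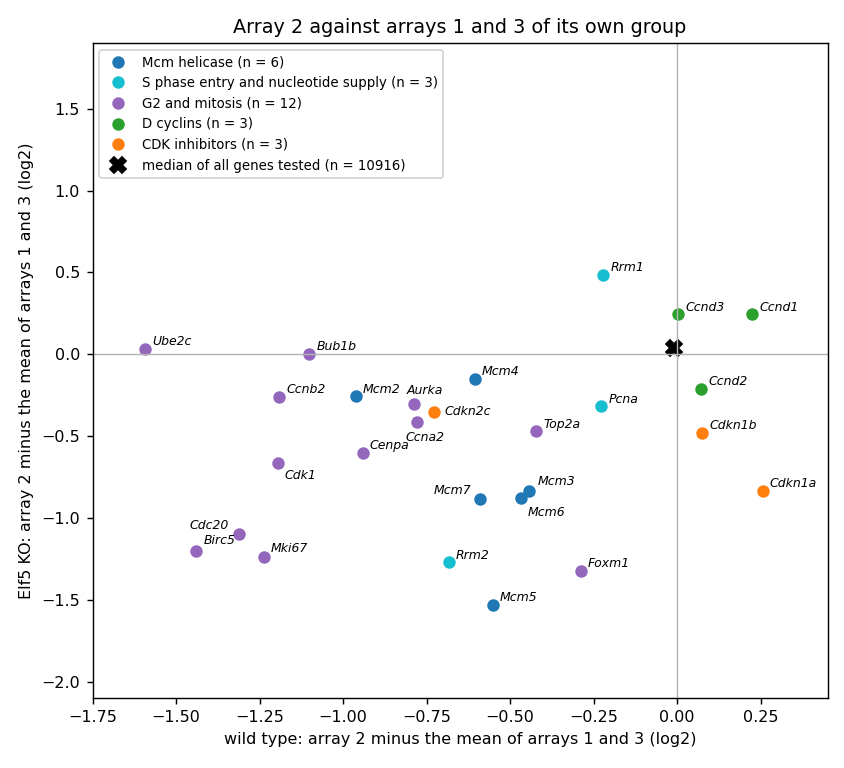
Each tested member's log2(signal + 16) in array 2 minus the mean of arrays 1 and 3, in wild type (horizontal axis) and in the Elf5 KO (vertical axis), coloured by role. Most mitotic, Mcm and S phase genes lie in the lower left, below 0 on both axes, whereas all genes tested have medians of -0.01 and 0.04 (cross).

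Genes with several probe sets showed how far a value depended on the probes. Of 14 members with more than 1 probe set over the filter, all probe sets of 11 had the same sign, or 78.6%, against 50.7% of 4429 genes. The exceptions were Rrm1, Rrm2 and Ccnd1. The median range between probe sets of a member was 0.50 and 0.45 in KO arrays 1 and 2, and wider in KO array 3, at 1.81 for members and 1.55 over all genes. In that array the probe sets of Mcm5 spread over 3.10 and those of Mcm7 over 2.67. The other Mcm5 probe set differed by only 0.42 between groups, and the other 3 of Mcm7 by 0.33, 0.43 and 0.99. Mcm3 was steadier: its second probe set over the filter differed by 1.13, and its groups were parted as well. The brightest probe sets of Mcm3, Mcm5 and Mcm7 carry the array maker's suffixes for probes that may also match other transcripts. Other probe sets carry them too, among them the second ones of Mcm3 and Foxm1, the Ccnd2 one at 2.03 and the brightest of Rrm2 and Cdc20. With the mean of all probe sets of a gene, the blocked fit kept Mcm3, Cdkn2c and Foxm1, and Mcm5, Mcm7 and Ccnd2 were lost (limma adjusted p = 0.0629, 0.0702 and 0.1).

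**Figure D4:**
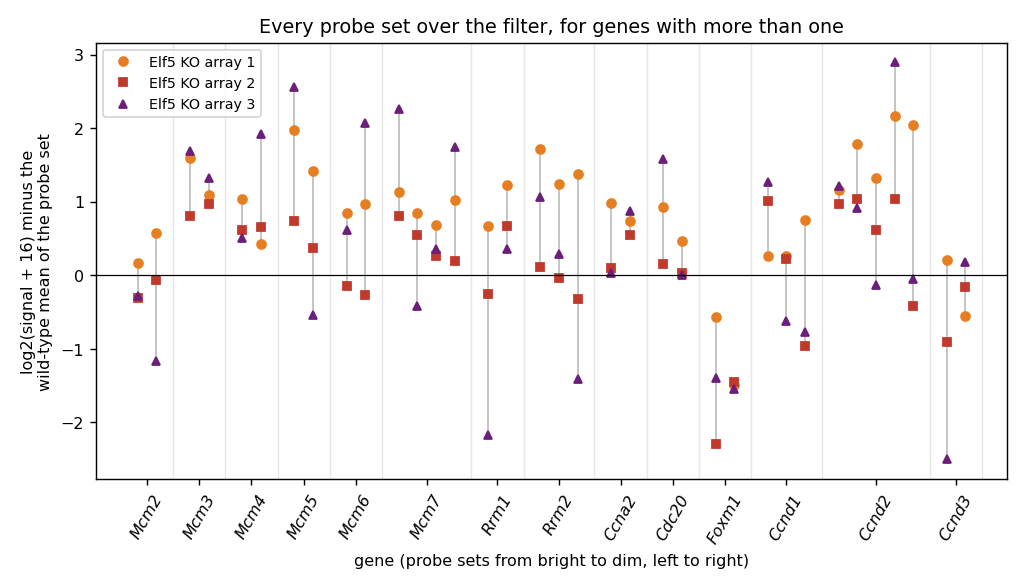
Every probe set over the filter of the 14 members that have more than 1, as log2(signal + 16) in each Elf5 KO array minus the wild-type mean of the same probe set. Lines join the arrays of 1 probe set. Triangles (KO array 3) scatter widely between probe sets of 1 gene, as for Mcm5, Mcm7 and Rrm1, while circles and squares (KO arrays 1 and 2) lie closer together, and both Foxm1 probe sets lie below 0 in every array.

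Other genes of the same pathways were read from lists of their own. Of 24 tested genes of DNA synthesis, 17 had a higher mean in the KO and 7 a lower one, with a median of 0.60. The groups of 12 were parted upward, against 16.7% of all genes, and of 0 downward. Limma called 0 without the block (11 had an unadjusted p under 0.05), and 4 rose in its blocked fit, against 7.7% of all genes. Rfc4, a subunit of the clamp loader, read 46.1, 56.2 and 73.0 in wild type against 156, 122 and 147 in the KO. It differed by 1.09 ± 0.29 (SE; limma adjusted p = 0.0815, and 0.0353 with the block). Prim1, the primase, differed by 1.01 ± 0.29 (SE), and Dut, which clears dUTP, by 1.10 ± 0.33 (SE; 0.63 on the low-ratio arrays). The fourth, outside the rule of 3 names per list and chosen after its values were seen, was the thymidylate kinase Dtymk (1.21, and 0.68 on the low-ratio arrays).

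Origin licensing and firing, the steps that load the helicase and switch it on, were read from 18 other genes. Of the 13 tested, 8 had a higher mean and 5 a lower one, with a median of 0.13 (0.07 on the low-ratio arrays). Limma called 0 in either fit (1 had an unadjusted p under 0.05 without the block). All 18 had a probe set, with 12 higher and a median of 0.31. Orc6 and Orc5, of the origin recognition complex, differed by 0.83 and 0.75, and Cdt1, the loading factor, by 0.82. On the low-ratio arrays Orc6 and Orc5 differed by only 0.18 and 0.21, and Cdt1 by 1.01. Cdt1 read 160.4, 93.7 and 139 in wild type against 274, 132 and 368 in the KO, with KO array 2 among the wild-type arrays. A second Cdt1 probe set over the filter did not share its sign.

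Of 26 tested genes of the spindle, kinetochore and cytokinesis, 20 had a higher mean and 6 a lower one, with a median of 0.45. None passed without the block, and with it 4 rose and 2 fell under limma, against 7.7% and 4.53% of all genes. Smc2, of condensin, read 50.2, 60.9 and 75.5 in wild type against 124, 126 and 224 in the KO, with parted groups and a difference of 1.12 ± 0.32 (SE). Incenp, of the chromosomal passenger complex, differed by 1.53 ± 0.46 (SE) and Cks2, which binds mitotic CDKs, by 1.28 ± 0.41 (SE). These were higher on the low-ratio arrays too (0.85, 1.22 and 1.35). The others called, named after their values were seen, were the motor Kif22, which rose, and the spindle genes Tpx2 and Spc25, which fell. Tpx2 and Spc25 differed by -1.31 and -1.29, but by only -0.43 and -0.05 on the low-ratio arrays. Of 2 other Tpx2 probe sets over the filter, 1 shared its sign, while Incenp and Cks2 each had 1 other, of the same sign.

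CDK, Rb and E2F regulators had no common direction, with 11 of 16 higher and 5 lower and a median of 0.07. On the low-ratio arrays this median was 0.18. E2f4, an E2F that mostly represses, read 140, 226 and 138 in wild type against 92.4, 75.8 and 35.7 in the KO. It was lower in every KO array, and fell in the blocked fit alone (-1.16 ± 0.36 SE; limma adjusted p = 0.115, and 0.0395 with the block), with -0.73 on the low-ratio arrays. Skp2, which marks p27 for breakdown, differed by 0.82 ± 0.28 (SE) and Tfdp2, a partner of E2F factors, by 0.87 ± 0.29 (SE). Both had parted groups, and neither passed. Of 2 other Tfdp2 probe sets over the filter, 1 shared its sign.

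Among 15 other inhibitors and checkpoint genes, 7 had a higher mean and 8 a lower one, with a median of -0.03. On the low-ratio arrays this median was 0.63. Gadd45a, a stress and growth-arrest gene, read 9.0, 34.9 and 50.1 in wild type against 76.7, 193 and 178 in the KO. It had the largest difference of these lists, 1.83 ± 0.45 (SE), and rose in limma's blocked fit (adjusted p = 0.0125, and 0.0699 without the block). On the low-ratio arrays it differed by 1.08. In the blocked fit over all arrays Btg1, an antiproliferative gene, rose by 0.92, whereas Gadd45g, a relative of Gadd45a, fell by 1.01 on the log2 scale.

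Signals of several cell type marker lists differed between the groups. All 10 fibroblast markers had a higher mean in the KO, and their summed signal was 12203 to 19262 in wild type and 23384 to 36636 in the KO, without overlap. Lymphocyte markers were higher for 7 of 8, at 664 to 1026 against 1446 to 3174, and myeloid markers for 6 of 9, at 7978 to 10699 against 10145 to 15969. Luminal and milk markers were lower for 10 of 12, at 60292 to 138196 in wild type and 46153 to 70495 in the KO, with overlap. Adipocyte markers were higher for 6 of 7 measured, muscle markers for 7 of 7, endothelial markers for 5 of 8 and basal markers for 4 of 9. A whole-gland sample does not show which of these cell types divided. The part of the marked cell types in the differences of Mcm3, Mcm5, Mcm7, Ccnd2, Cdkn2c and Foxm1 was not tested.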

How the data were processed

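RNA from 3 wild-type and 3 Elf5 KO glands was read on 6 one-colour arrays. The authors deposited linear signal intensities whose making involved MAS5 and affy per the submitters' processing notes, and the values show that each array's mean, trimmed by 2% at each end, was 150.0. Groups came from the sample titles. Of 45101 probe sets, 64 were controls, 34945 named 1 gene, 932 several and 9160 were not listed in the annotation table used, and only those naming 1 gene were used. The probe set with the highest mean log2 value stood for a gene.

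Signals were analysed as log2(signal + 16), which understates changes of dim genes. Genes under the 40th percentile (7277) were left out and 10916 tested with limma 3.58.1 in R 4.3.3 (lmFit, eBayes with trend), Benjamini-Hochberg adjusted over all of them, at a threshold of 0.05. Errors are moderated SEs. A second fit had the replicate number as a block: deviations from group means correlated at 0.46, 0.34 and 0.29 between same-numbered arrays, each above the limit of 0.1, and at most 0.15 otherwise. These numbers come from the titles, which do not state a pairing. On simulated data for this comparison with a shared number effect, 10916 genes were drawn with log2 changes of 1 and 2 in 100 each. The blocked fit found 38% of the former and 99% of the latter and made 10 false calls, and the unblocked fit found 7% and 92%. With independent arrays the blocked fit found 4% and 83% and the unblocked fit 7% and 96%. Both simulations gave every array equal noise, and the shared effect was set from these same arrays. They therefore cannot tell whether the numbers mark pairs.

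Members, gene lists and tests were chosen with earlier results of these data known. Named genes were all members, Elf5 and the 3 with the smallest p per pathway list. Promoters were RefSeq stretches of 250 bases before the start. Alternatives changed the pseudocount, filter, scaling, probe set, variance model, RNA quality handling and arrays. For arrays, their number limits the precision.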

Additional observations from a re-analysis of the deposited data

How the results depend on the processing

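The number of genes called overall varied widely. Against 135 with the main settings it was 1335 with the replicate block, 85 with a pseudocount of 1, 56 without the filter, 290 after median centring, 69 with the mean of all probe sets and 2627 with array weights. Limma called 0 genes on the low-ratio arrays (1013 with an unadjusted p under 0.05) and 0 with the Gapdh ratio as covariate (1112). With the block it called 1352 after quantile normalization and 916 with the mean of all probe sets. Leaving out 1 array gave 0 to 1206, and leaving out pair 1, 2 or 3 from the blocked fit 1809, 19 and 1680. Members called went from 0 to 6 with the block, 9 with array weights (all 6 among them), 6 with quantile normalization and block (the same 6) and 3 with the mean of probe sets and block. They were 0 to 3 without 1 array (3 without KO array 1: Ccnd1, Ccnd3 and Foxm1) and 0 to 7 without 1 pair.

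The Mcm median of 1.04 was 0.72 without the filter, at the 60th percentile filter and with the mean of all probe sets, block or not. The S phase median was 0.94 on the low-ratio arrays. The D cyclin median of 0.85 was 0.16 with the mean of all probe sets, block or not, 0.26 on the low-ratio arrays and 0.38 with the covariate. The inhibitor median of 1.07 was 1.29 after median centring, 0.35 with the mean of all probe sets, block or not, 0.78 with array weights, 0.80 with the covariate, 0.60 to 1.19 without 1 array and 0.63 to 1.01 without 1 pair. Median centring moved the median of all genes from 0.06 to 0.28, and the Mcm and mitotic medians to 1.26 and 0.49.

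Differences that changed sign belonged to members with no call in the fit without or with the block, although Ccnd3 was called without KO array 1 (-1.70) and in the blocked fit without pair 1 (-1.60). Mcm2 was 0.07 after median centring, 0.16 on the low-ratio arrays, 0.04 with the covariate, -0.47 to 0.08 without 1 array and 0.15 without pair 3. Rrm1 was 0.11 with the mean of probe sets, block or not, 0.67 on the low-ratio arrays, 0.69 with the covariate, -1.22 to 0.21 without 1 array and 0.18 without pair 3. Mki67 was 0.16 after centring, 0.13 on the low-ratio arrays and -0.46 to 0.36 without 1 array. Cdk1 was -0.23 to 0.40 without 1 array and -0.0043 without pair 2. Aurka was 0.0038 with a pseudocount of 64, 0.14 after quantile normalization, block or not, 0.21 after centring, 0.02 with array weights, 0.70 on the low-ratio arrays, 0.54 with the covariate, -0.37 to 0.24 without 1 array, and 0.40 without pair 3. Ube2c was 1.02 on the low-ratio arrays, 0.85 with the covariate, -1.24 to 0.28 without 1 array and 0.46 without pair 3. Ccnd3 was 0.21 on the low-ratio arrays and 0.16 with the covariate. Cdkn1a was -0.34 to 1.26 without 1 array and -0.28 without pair 3. The cause of these shifts was not tested. A low-ratio value rests on 1 KO array, assumed to vary like the wild-type ones.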
